A study of Mus musculus with 3 samples.

Results

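The levels of 9 transcription factors were followed in myeloid cells of the injured mouse liver: Cebpb, Cebpe, Spi1, Irf8, Irf4, Klf4, Maf, Bach2 and Id3. They were found by gene symbol among the 34099 genes of the count matrices, where each matched 1 row. Every mouse had received 500 mg/kg paracetamol, which injures hepatocytes, and an infusion 6 h later, and its liver was taken after 4 days. The infusion held mesenchymal stromal cells (MSCs) carrying bispecific polyvalent peptides in the engineered MSC group, unmodified MSCs in the native MSC group, and PBS alone in the control group. Each group was 1 mouse and 1 library of dissociated liver cells, made with droplet 3' chemistry. Strain, sex and age are not given in the labels, and no uninjured liver was analysed here.

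The libraries held 11028 engineered MSC, 11479 native MSC and 10739 PBS barcodes, with 62564254 (engineered MSC), 84950721 (native MSC) and 82247448 (PBS) unique molecular identifiers (UMIs), each of which stands for 1 captured transcript. After filtering, 9130 (engineered MSC), 9175 (native MSC) and 9534 (PBS) cells were kept, with median depths of 3665.5 UMIs in engineered MSC, 5654 in native MSC and 5779 in PBS. Clusters were named from marker genes, which gave 1578 (engineered MSC), 5987 (native MSC) and 5844 (PBS) myeloid cells, and 6.98% (engineered MSC), 5.59% (native MSC) and 10.1% (PBS) of kept cells were left without a name. A class name such as Kupffer cell means that the cells resemble that type by its markers. A level is given in CPM, the UMIs of a gene as a share of all UMIs of its class and library, put on the usual scale of that unit, and intervals are 95% and cover counting error only. Since each group was 1 animal, no difference could be tested against the spread between animals, and a treatment and its mouse cannot be told apart. Between 39 and 46 cell barcodes were shared by each pair of libraries, at most 0.417% of a library.

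Spi1, known as PU.1, is an ETS-family factor that opens the enhancers of most myeloid genes. C/EBP factors drive granulocyte and monocyte genes, Irf8 and Irf4 divide the dendritic cell lineages between them, and Klf4 is needed for monocyte differentiation. Maf and Id3 are known from resident macrophages, Id3 in particular from Kupffer cells, the macrophages that line liver sinusoids, while Bach2 is a repressor best known from B and T lymphocytes.

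Bach2, Id3 and Irf8 were each lower in classical monocytes of both MSC libraries than in those of the PBS library, so the 250 bases before their annotated starts are shown. They come from the RefSeq promoter table, which is built on GRCm38.p6 and not on the GRCm39 build of the counts, and for Irf8 the first of its listed windows is given. The table had a window for 6 of the 9 members. Each is written 5′ to 3′ on the strand of the gene, and capitals mark TTCCTC, the reverse complement of GAGGAA, letters that the Spi1 family can bind. Other forms of ETS site were not searched for.
Bach2 chr4:32417185-32417434 (+): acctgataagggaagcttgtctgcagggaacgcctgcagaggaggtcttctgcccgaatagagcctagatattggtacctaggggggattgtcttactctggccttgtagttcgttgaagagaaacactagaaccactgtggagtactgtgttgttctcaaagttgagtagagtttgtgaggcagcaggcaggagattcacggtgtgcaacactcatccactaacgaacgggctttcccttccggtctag
Id3 chr4:136143572-136143821 (+): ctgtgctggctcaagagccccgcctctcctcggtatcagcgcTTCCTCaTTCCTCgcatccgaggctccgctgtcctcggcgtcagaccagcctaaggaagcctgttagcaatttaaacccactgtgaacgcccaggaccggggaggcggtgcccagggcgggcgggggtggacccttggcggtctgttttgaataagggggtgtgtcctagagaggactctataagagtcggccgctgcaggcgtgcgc
Irf8 chr8:120736108-120736357 (+): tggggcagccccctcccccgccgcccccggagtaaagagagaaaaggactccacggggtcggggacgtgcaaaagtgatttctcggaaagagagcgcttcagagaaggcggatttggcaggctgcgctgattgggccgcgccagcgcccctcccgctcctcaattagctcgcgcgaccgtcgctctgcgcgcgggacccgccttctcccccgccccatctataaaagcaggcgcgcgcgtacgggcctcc
The Id3 window held the letters 2 times, 208 and 201 bases before the start, and the Bach2 and Irf8 windows did not hold them on either strand. Among the other windows of members, Irf4 held them 1 time, 19 bases before its start. Of 32851 mouse windows of this length, 23.3% held GAGGAA on either strand. The C/EBP letters TTGCNNAA, found in 9.56% of windows, and the interferon response letters (GAAA, any 2 bases, GAAA), found in 2.98%, had no match in a member's window. These matches are descriptions of the letters alone.

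**Figure D1:**
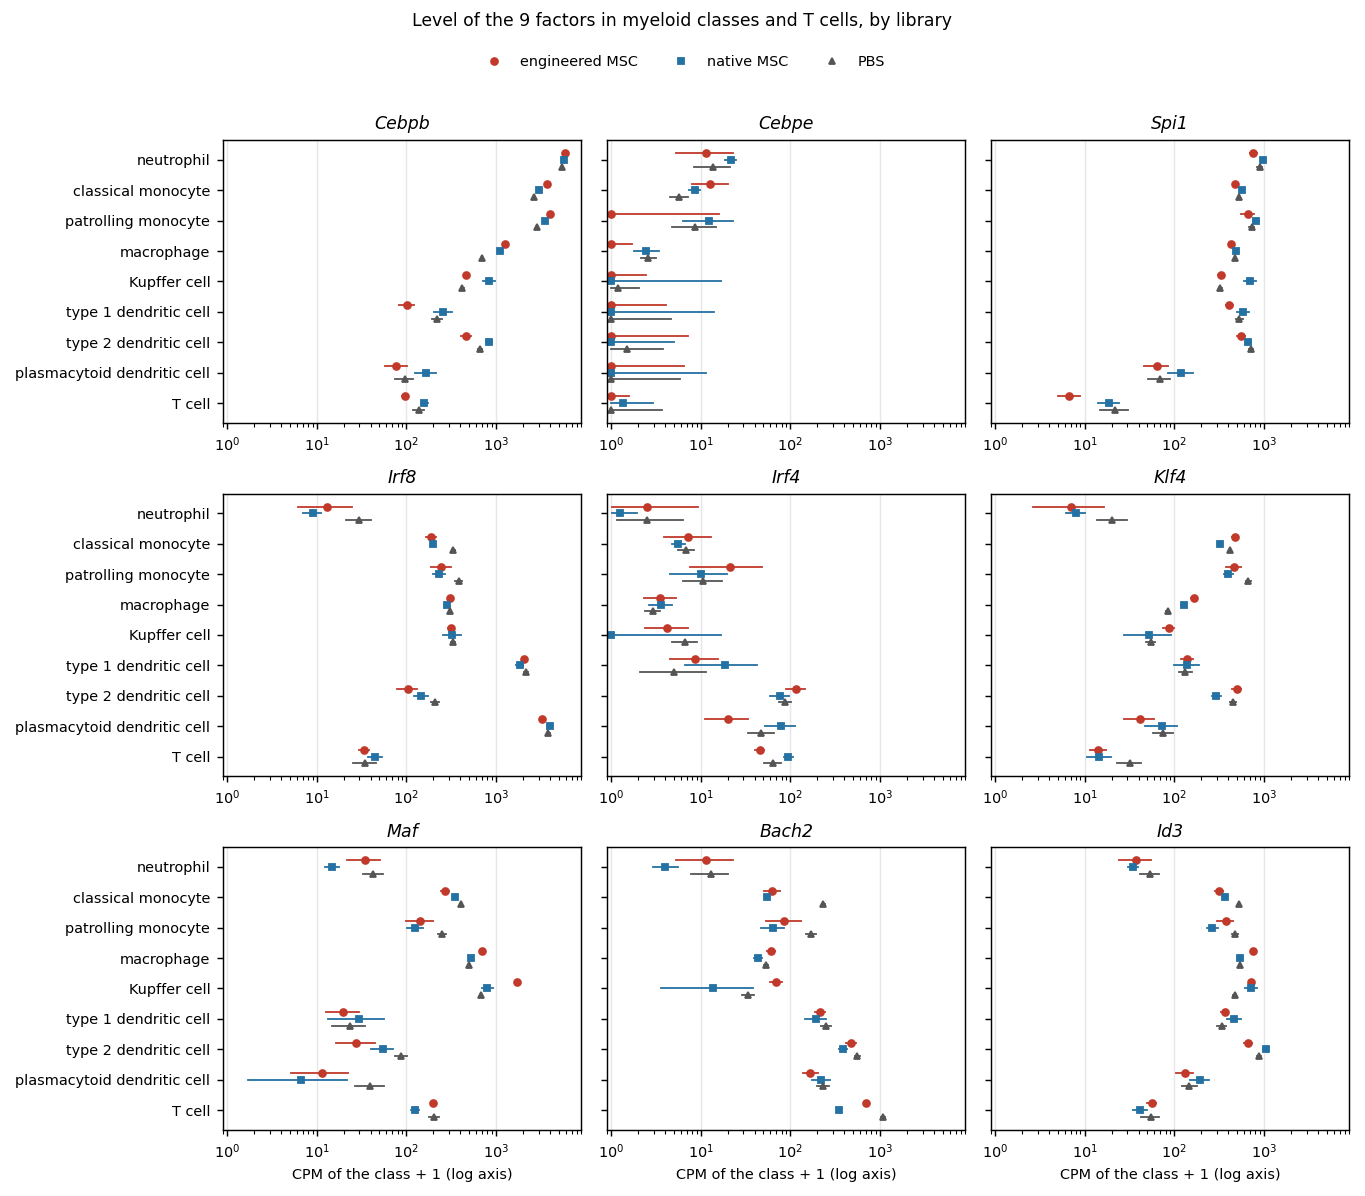
Level of each factor in myeloid classes and in T cells, as CPM plus 1 on a log axis, with engineered MSC (circles), native MSC (squares) and PBS (triangles) libraries; bars are exact Poisson 95% intervals. Irf8 peaked in plasmacytoid and type 1 dendritic cells, Cebpb in neutrophils and monocytes, and Maf in Kupffer cells and macrophages.

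Cebpb, a C/EBP factor induced in inflammation and in emergency granulopoiesis, was most abundant in neutrophils, at 5879 CPM in the engineered MSC library, 5791 in the native MSC library and 5408 in the PBS library. The 3 neutrophil values lay above all monocyte values. Patrolling monocytes followed with 4059 (engineered MSC), 3486 (native MSC) and 2894 (PBS) CPM and classical monocytes with 3688 CPM in engineered MSC, 2989 in native MSC and 2674 in PBS, and these ranges overlapped. Macrophages had 1249 CPM in engineered MSC, 1105 in native MSC and 696 in PBS, Kupffer cells 461 CPM in engineered MSC, 838 in native MSC and 419 in PBS, and plasmacytoid dendritic cells 76.1 CPM in engineered MSC, 164 in native MSC and 94.5 in PBS. T cells, a lymphoid class, had 95.1 CPM in engineered MSC, 158 in native MSC and 137 in PBS, so the plasmacytoid values were no higher than those of T cells in 2 of 3 libraries.

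Cebpe, the factor of terminal granulocyte maturation and of specific granule genes, was sparse. It stood at 99.3 CPM (37 UMIs, interval 69.9 to 137) in the 50 native MSC cells named immature neutrophils, against 20.6 CPM in the mature neutrophils of that library (interval 17.5 to 24.1). These 50 cells also carried 206584 CPM of summed red cell markers, whose part in the level was not tested. The same class held 6 engineered MSC cells with 5 Cebpe UMIs and 1 PBS cell with 4. Mature neutrophils had 10.6 CPM in engineered MSC and 12.7 CPM in PBS, and no Cebpe UMI was found in type 1, migratory or plasmacytoid dendritic cells of any library.

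Spi1 was spread most evenly over the myeloid classes. Neutrophils had 759 CPM in engineered MSC, 976 in native MSC and 896 in PBS, patrolling monocytes 656 in engineered MSC, 809 in native MSC and 728 in PBS, and type 2 dendritic cells 555 in engineered MSC, 664 in native MSC and 722 in PBS. Classical monocytes, type 1 dendritic cells and macrophages followed, between 410 and 591 CPM, and neighbours in this order overlapped. Plasmacytoid dendritic cells stood apart, with 62.7 CPM in engineered MSC, 118 in native MSC and 67.9 in PBS. After each cell was thinned to 1000 UMIs, 49.8% of engineered MSC, 56.4% of native MSC and 57.2% of PBS neutrophils had a Spi1 UMI, against 0.166% (engineered MSC), 1.17% (native MSC) and 2.54% (PBS) of T cells, which should lack it. Thinning left out 7 (engineered MSC), 92 (native MSC) and 47 (PBS) neutrophils, and before it the neutrophil shares were 74.2% (engineered MSC), 80.3% (native MSC) and 77.3% (PBS) at median depths of 2630.5 UMIs in engineered MSC, 2783 in native MSC and 2139 in PBS, against 2.01% (engineered MSC), 11.4% (native MSC) and 6.85% (PBS) of T cells at 4113 UMIs in engineered MSC, 5269.5 in native MSC and 3206 in PBS.

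Irf8, the interferon regulatory factor that type 1 dendritic cells need and plasmacytoid dendritic cells share, had its highest levels in these classes. Plasmacytoid cells had 3298 CPM in engineered MSC, 3966 in native MSC and 3844 in PBS. Type 1 dendritic cells had 2063 CPM in engineered MSC, 1836 in native MSC and 2163 in PBS, below all plasmacytoid values, and type 2 cells 102 CPM in engineered MSC, 145 in native MSC and 210 in PBS. Irf4, its counterpart in type 2 dendritic cells and plasma cells, showed the other order among conventional dendritic cells. Type 2 cells had 114 (engineered MSC), 75.4 (native MSC) and 86.0 (PBS) Irf4 CPM, against 7.70 (engineered MSC), 17.7 (native MSC) and 4.05 (PBS) CPM in type 1 cells, of which the native MSC library held 25. The dendritic levels of Irf4 stayed under those of B cells, at 268 CPM in engineered MSC, 358 in native MSC and 358 in PBS.

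Klf4, a zinc finger factor of monocyte differentiation, was highest among myeloid classes in monocytes and type 2 dendritic cells. Patrolling monocytes had 458 CPM in engineered MSC, 401 in native MSC and 672 in PBS, type 2 dendritic cells 498 in engineered MSC, 294 in native MSC and 452 in PBS, and classical monocytes 476 in engineered MSC, 327 in native MSC and 421 in PBS. These ranges overlapped, and the lowest of them lay above all values of macrophages, at 165 CPM in engineered MSC, 126 in native MSC and 83.6 in PBS, and of Kupffer cells, at 85.6 CPM in engineered MSC, 51.6 in native MSC and 53.8 in PBS. In neutrophils Klf4 stood at 6.06 CPM in engineered MSC, 6.95 in native MSC and 19.5 in PBS, against 13.1 (engineered MSC), 13.6 (native MSC) and 30.9 (PBS) CPM in T cells. Outside the myeloid classes, vascular endothelium had between 244 and 511 CPM over the libraries, and stellate cells and fibroblasts between 234 and 494. Both overlapped the levels of monocytes and type 2 dendritic cells.

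Maf, a large MAF factor that restrains macrophage self-renewal and also marks sinusoidal endothelium, was highest in the Kupffer and macrophage classes among myeloid cells. Kupffer cells had 1703 CPM in engineered MSC, 804 in native MSC (29 cells) and 683 in PBS. Macrophages had 706 CPM in engineered MSC, 533 in native MSC and 503 in PBS, and classical monocytes 267 in engineered MSC, 345 in native MSC and 404 in PBS. Patrolling monocytes were lower, at 142 CPM in engineered MSC, 124 in native MSC and 247 in PBS, and type 2 dendritic cells lower still, at 26.8 CPM in engineered MSC, 53.5 in native MSC and 86.0 in PBS. The highest Maf level of a named class was in sinusoidal endothelial cells, at 3154 CPM in engineered MSC, 1867 in native MSC and 1896 in PBS.

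Bach2 and Id3 both had their highest median myeloid level in type 2 dendritic cells. Bach2 stood there at 476 CPM in engineered MSC, 390 in native MSC and 560 in PBS, above all values of plasmacytoid cells, which had 167 CPM in engineered MSC, 219 in native MSC and 233 in PBS, and of type 1 cells, which had 215 CPM in engineered MSC, 191 in native MSC and 248 in PBS. Its B cell levels were higher than any of these, at 3572 CPM in engineered MSC, 2276 in native MSC and 2588 in PBS. Id3, a helix-loop-helix protein that binds E proteins and keeps them off DNA, had 671 (engineered MSC), 1053 (native MSC) and 876 (PBS) CPM in type 2 dendritic cells, 717 (engineered MSC), 718 (native MSC) and 470 (PBS) in Kupffer cells and 751 (engineered MSC), 535 (native MSC) and 545 (PBS) in macrophages. Those 3 classes overlapped in Id3, which was also high in stellate cells and fibroblasts, at 1771 CPM in engineered MSC, 1765 in native MSC and 653 in PBS.

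Libraries were compared within a class where both had at least 50 cells, and a pair of values counted as past 2-fold if it held at least 20 UMIs. In engineered MSC against PBS, 57 pairs of a member and a class were measured in 7 classes, and 12 were past 2-fold, 3 higher and 9 lower. That is 21.1%, where the background over all genes of the same classes was 13% (7.52% higher and 5.51% lower). In native MSC against PBS, 7 of 51 pairs in 6 classes were past 2-fold, all lower, or 13.7% against a background of 11.3% (5.09% higher and 6.17% lower). In engineered MSC against native MSC, 4 of 40 pairs in 5 classes were past 2-fold, 2 higher and 2 lower, or 10.0% against a background of 11.1% (7.29% higher and 3.78% lower). The shares of members for native MSC against PBS and for engineered against native MSC lie near their background and are no result about these factors as a group. The share for engineered MSC against PBS includes Irf8 and Klf4 of neutrophils, Cebpe of macrophages and Maf of plasmacytoid cells. Those pairs are not read as expression below. With 12 calls in all, this share is not read as a result about the factors as a group either. Both comparisons with PBS use the same PBS library, so their likeness in a class is not independent.

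The counts were small in every class. For engineered MSC against PBS, 2 of 8 members were past 2-fold in neutrophils (background 14.9%), 2 of 9 in classical monocytes (13.2%), 1 of 9 in macrophages (13%) and 2 of 8 in Kupffer cells (19.3%). Among dendritic cells they were 1 of 7 in type 1 (10%), 2 of 8 in type 2 (10.7%) and 2 of 8 in plasmacytoid cells (7.68%). For native MSC against PBS, 4 of 8 members were past 2-fold in neutrophils (18.7%), 1 of 9 in classical monocytes (10.4%), 1 of 9 in patrolling monocytes (8.32%) and 1 of 8 in plasmacytoid cells (7.91%), with none in macrophages (12.7%) or type 2 dendritic cells (7.11%). For engineered against native MSC, the calls were 2 of 8 in neutrophils (16.3%) and 2 of 7 in plasmacytoid cells (11.6%), with none in classical monocytes (11.1%), macrophages (6.31%) or type 2 dendritic cells (11.1%). With so few members in a class, 1 or 2 calls cannot be told apart from these backgrounds.

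**Figure D2:**
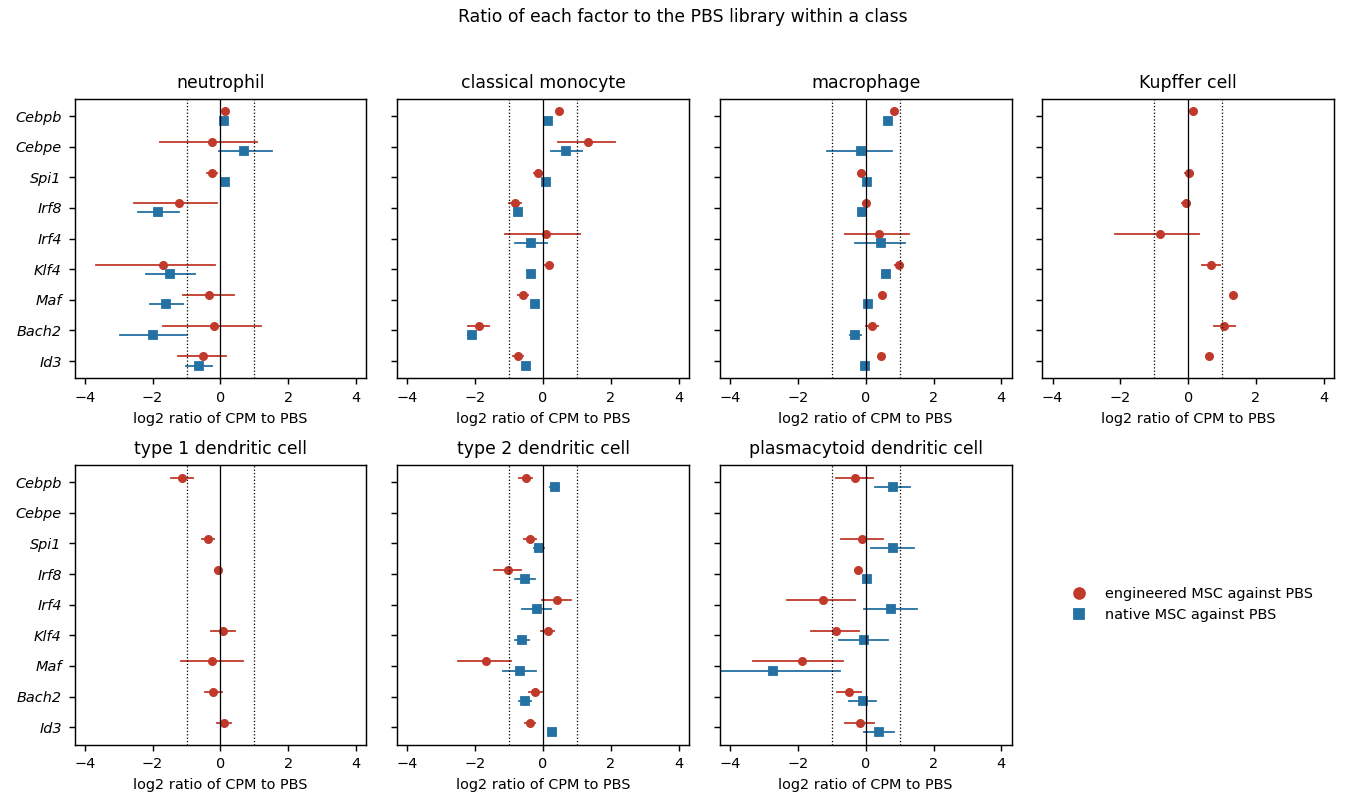
Log2 ratio of CPM of each factor to the PBS library within a class, for engineered MSC (circles) and native MSC (squares), with exact conditional binomial 95% intervals; dotted lines mark 2-fold. Bach2 in classical monocytes lay past 2-fold lower in both; patrolling monocytes, pairs with few UMIs and Cebpe of engineered MSC macrophages (0 UMIs) are not drawn, and the interval of Maf in native MSC plasmacytoid cells runs past the axis.

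In classical monocytes, Bach2 differed most. It stood at 62.2 CPM in engineered MSC (89 UMIs in 189 cells) and 54.0 CPM in native MSC (1095 UMIs in 2465 cells), against 232 CPM in PBS (2694 UMIs in 1850 cells). The PBS value was high and the MSC values lay close together. Engineered MSC was 3.73-fold lower than PBS (3.02 to 4.66) and native MSC 4.29-fold lower (4.00 to 4.61), while engineered over native MSC was 1.15 (0.917 to 1.43). The share of classical monocytes with a Bach2 UMI, thinned to 1000 UMIs, was 3.28% in engineered MSC, 5.01% in native MSC and 17.98% in PBS, against 0.873% (engineered MSC), 0.470% (native MSC) and 0.885% (PBS) of neutrophils, a myeloid class with little Bach2. Before thinning, the classical shares were 24.3% (engineered MSC), 24.1% (native MSC) and 51.9% (PBS) at median depths of 7709 UMIs in engineered MSC, 8275 in native MSC and 6312.5 in PBS. B cell markers summed to 89.4 (engineered MSC), 34.5 (native MSC) and 54.0 (PBS) CPM in these monocytes. T cell markers summed to 11.2 CPM in engineered MSC, 6.32 in native MSC and 3.53 in PBS. B cell markers were thus higher in PBS than in native MSC and lower than in engineered MSC. The part of lymphocyte transcripts in the Bach2 ratios was not tested.

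The classical monocytes of the 3 libraries lay largely in different clusters. Cluster M15 (Vcan, Ly6c2, Plac8) held 91.5% of the engineered MSC cells. M2 (Chil3, Vcan, Ccr2, Thbs1) held 51.0% and M4 (Ly6a2, Vcan, Chil3) 41.1% of the native MSC cells. M1 (Vegfa, Thbs1, Fn1) held 60.2%, M10 21.3% and M7 (Ace, Adgre4) 16.97% of the PBS cells. Bach2 was 62.1 CPM in M15 of engineered MSC, 74.8 in M2 and 23.9 in M4 of native MSC, and 289 in M1, 142 in M7 and 75.7 in M10 of PBS. The difference from PBS was thus carried mostly by M1 and M7, and the PBS cells of M10 were as low as the native MSC cells of M2.

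Where native MSC and PBS shared a cluster, Bach2 did not differ beyond counting error. Within M10 the levels were 53.2 CPM in native MSC (11 UMIs) and 75.7 CPM in PBS, a ratio of 0.703 (0.341 to 1.31). Within M4 they were 23.9 CPM in native MSC and 5.99 CPM in 21 PBS cells with 1 UMI. M10 was a cluster with few UMIs, so both comparisons rest on thin counts. Without M10, the class ratios of Bach2 to PBS were 0.241 (0.193 to 0.299) for engineered and 0.211 (0.197 to 0.227) for native MSC. A further 68 native MSC and 501 PBS monocytes, led by patrolling markers but without enough of them to be named, were left out and had 112 Bach2 CPM in native MSC and 297 in PBS. Cells named patrolling monocytes, which kept classical markers, gave the same direction for native MSC. They had 62.8 CPM against 171 CPM in PBS, or 2.73-fold lower (2.00 to 3.79). The patrolling call was lost with at least 500 genes per cell, with doublets kept and with classes from a marker score per cell, and the log2 ratio lay between -2.36 and -0.40 over the alternatives. The engineered MSC library held 47 patrolling cells, too few to compare, with 85.1 CPM (21 UMIs). Within cluster M7, which held 81.4% of PBS and 21.7% of native MSC patrolling cells, Bach2 was 164 CPM in native MSC and 178 CPM in PBS, a ratio of 0.920 (0.570 to 1.42), so the class difference was not found inside M7.

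**Figure D3:**
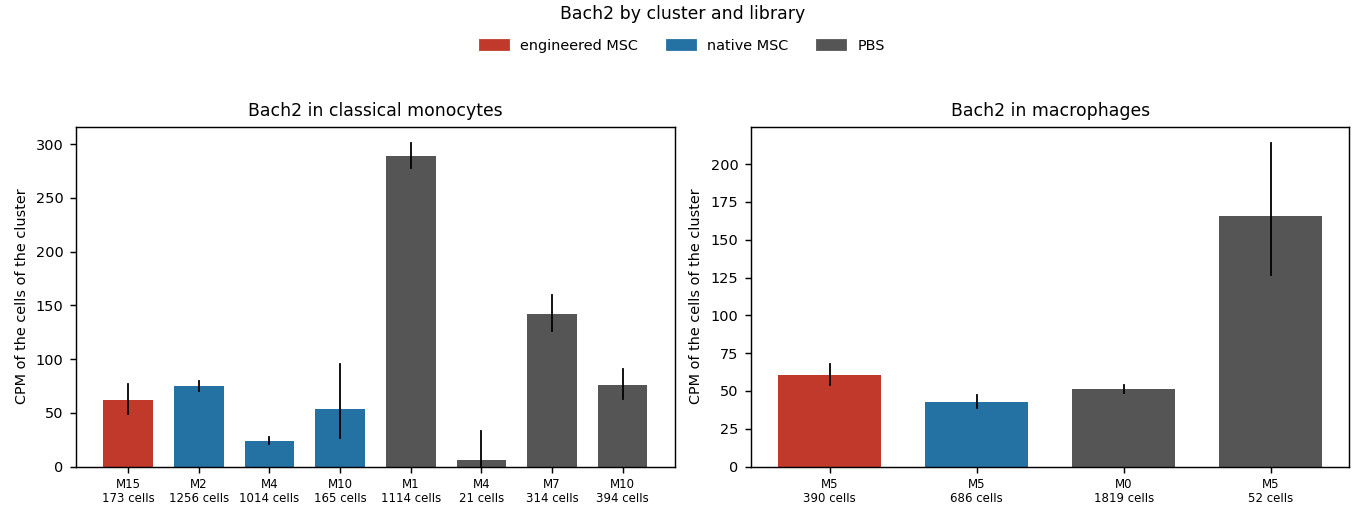
Bach2 CPM by cluster and library in classical monocytes (left) and macrophages (right), for clusters with at least 20 cells of a library; bars start at 0, lines are exact Poisson 95% intervals, and cell numbers stand under each cluster. PBS cluster M1 reached 289 CPM, and the 52 PBS macrophages of M5 166 CPM.

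Macrophages showed the dependence on clusters the other way round. Their Bach2 levels over the class were 60.4 CPM in engineered MSC, 42.5 in native MSC and 52.8 in PBS, with no difference past 2-fold. Cluster M5 (Spp1, Cbr2, Pf4) held 98.7% of engineered MSC and 98.4% of native MSC macrophages, and M0 (Atp6v0d2, Lpl, Gpnmb) 97.2% of those of PBS. Within M5, Bach2 was 60.7 CPM in engineered MSC and 42.7 in native MSC, against 166 CPM in 52 PBS cells. The ratios to PBS inside M5 were 0.366 for engineered (0.276 to 0.492) and 0.257 for native MSC (0.195 to 0.344).

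Other members moved less in classical monocytes. Irf8 stood at 189 CPM in engineered MSC and 199 in native MSC, against 335 in PBS, ratios of 0.563 for engineered (0.496 to 0.637) and 0.595 for native MSC (0.570 to 0.622). Inside shared clusters the native MSC ratio of Irf8 was 0.639 (0.469 to 0.854) in M10 and 0.579 (0.441 to 0.777) in M4, close to that of the class. Id3 had 314 CPM in engineered and 372 in native MSC against 525 in PBS, ratios of 0.599 (0.543 to 0.659) for engineered and 0.709 (0.685 to 0.733) for native MSC. For Id3, native MSC was lower than PBS in M10, at 411 against 676 CPM, and higher in M4, at 151 against 41.9 CPM with 7 UMIs in PBS. Cebpb was higher in both, at 3688 CPM in engineered and 2989 in native MSC against 2674 in PBS, and Maf lower in both, at 267 CPM in engineered and 345 in native MSC against 404 in PBS, all within 2-fold. Inside M10, native MSC went the other way, with ratios to PBS of 0.574 for Cebpb (0.514 to 0.640) and 1.80 for Maf (1.48 to 2.17). Inside M4 the ratios were 1.22 for Cebpb (1.11 to 1.35) and 1.60 for Maf (0.967 to 2.87).

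Cebpe reached 11.9 CPM in classical monocytes of engineered MSC (17 UMIs) and 7.60 in native MSC (154 UMIs), against 4.74 in PBS (55 UMIs). The engineered ratio was 2.51 (1.36 to 4.38) and that of native MSC 1.60 (1.17 to 2.22). Neutrophil markers summed to 2330 CPM in these monocytes of engineered MSC and 1852 in those of native MSC, against 563 in PBS, and their part in the Cebpe ratio was not tested. The engineered call was lost when the mitochondrial limit was set to 10% or removed. In macrophages, Cebpe had 0 UMIs in engineered MSC, 14 in native MSC (1.46 CPM) and 41 in PBS (1.60 CPM). Counting 3 UMIs as the floor for engineered MSC, macrophage Cebpe was at least 2.77-fold lower there than in PBS. Hepatocytes, which should lack Cebpe, had 4.24 CPM in engineered MSC, 4.79 in native MSC and 2.04 in PBS, above the macrophage levels in each library, so the macrophage values are not read as expression. Those hepatocyte levels were higher in both MSC libraries than in PBS, as Cebpe of classical monocytes was. The part of such a background in the monocyte ratios was not tested.

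In macrophages, Cebpb and Klf4 were higher in both MSC libraries than in PBS, within 2-fold. Classical monocyte markers in these macrophages summed to 2022 CPM in engineered MSC and 2669 in native MSC, against 450 in PBS, and their part in the ratios was not tested. Cebpb was 1249 CPM in engineered and 1105 in native MSC against 696 in PBS, ratios of 1.79 for engineered (1.74 to 1.85) and 1.59 for native MSC (1.55 to 1.62). Inside cluster M5 the ratios were smaller, 1.25 for engineered (1.13 to 1.40) and 1.08 for native MSC (0.977 to 1.21), since the 52 PBS cells there had 1022 CPM. Klf4 was 165 CPM in engineered and 126 in native MSC against 83.6 in PBS, ratios of 1.97 for engineered (1.82 to 2.14) and 1.51 for native MSC (1.40 to 1.62). Inside M5, Klf4 of engineered MSC was 0.946 of that of PBS (0.734 to 1.24), and of native MSC 0.705 (0.548 to 0.921). The class differences of Cebpb and Klf4 therefore went with the different clusters of the libraries. Maf and Id3 of engineered MSC macrophages were higher than PBS both over the class, with ratios of 1.40 for Maf (1.35 to 1.45) and 1.38 for Id3 (1.33 to 1.43), and inside M5, with 1.44 for Maf (1.24 to 1.68) and 1.67 for Id3 (1.43 to 1.96).

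Kupffer cells could be compared for 401 engineered MSC and 678 PBS cells. Maf stood at 1703 CPM in engineered MSC against 683 CPM in PBS, a ratio of 2.49 (2.38 to 2.60), and Bach2 at 68.6 against 32.8 CPM, a ratio of 2.09 (1.69 to 2.60). Klf4 and Id3 were also higher, with ratios of 1.59 (1.33 to 1.90) and 1.52 (1.43 to 1.62). Spi1 and Irf8 were close to level, at 1.01 (0.928 to 1.10) and 0.949 (0.872 to 1.03). B cell markers in these Kupffer cells summed to 42.4 CPM in engineered MSC against 21.1 in PBS. T cell markers summed to 21.8 CPM in engineered MSC against 5.46 in PBS. The part of lymphocyte transcripts in the Bach2 ratio was not tested. The background of 19.3% past 2-fold in this class was the highest of the classes in this comparison.

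Sinusoidal endothelial transcripts, like Maf, were higher in engineered MSC than in PBS Kupffer cells. In the 29 native MSC Kupffer cells, too few to compare, these transcripts were lower than in PBS. Maf stood there at 804 CPM, against 683 CPM in PBS. Of these native MSC cells, 26 lay in cluster M8 and 3 in M13. Inside M8, Maf of native MSC did not differ from PBS beyond counting error, with a ratio of 1.09 (0.915 to 1.28). The part of endothelial transcripts in the Maf ratio of engineered MSC to PBS was not tested. Markers of that endothelium summed to 2569 CPM in engineered MSC, 125 in native MSC and 455 in PBS Kupffer cells, and Stab2, a scavenger receptor of sinusoids, had 762 CPM in engineered MSC, 90.2 in native MSC and 209 in PBS. Cluster M17 held 30.9% of the engineered MSC and 9.88% of the PBS Kupffer cells, with endothelial sums of 5627 CPM in engineered MSC and 2479 in PBS, and Maf levels of 2405 CPM in engineered MSC and 1029 in PBS. Without M17, Maf was 1164 CPM in engineered MSC against 631 CPM in PBS, a ratio of 1.85 (1.74 to 1.96), at endothelial sums of 219 CPM in engineered MSC and 146 in PBS, and the Bach2 ratio was 1.45 (1.08 to 1.95). Klf4 was no longer higher without M17, with a ratio of 0.919 (0.694 to 1.20), whereas Id3 had 1.33 (1.23 to 1.44). Spi1 then had a ratio of 1.21 (1.10 to 1.33) and Irf8 one of 1.06 (0.953 to 1.17).

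Most of the remaining engineered MSC cells, 62.1% of its Kupffer cells, lay in M13 (C6, Clec4f, Timd4), with 1343 Maf CPM, whereas 90.0% of the PBS cells lay in M8 (Marco, Vsig4, Clec4f). M13 had fewer than 20 cells in native MSC and PBS. Inside M8, Maf was 718 CPM in 28 engineered MSC cells and 685 CPM in 26 native MSC cells, against 631 CPM in 610 PBS cells, ratios to PBS of 1.14 for engineered (1.01 to 1.28) and 1.09 for native MSC (0.915 to 1.28). The Maf difference was thus carried by M13 and M17. Inside M17, the Maf ratio of engineered MSC to PBS was 2.34 (2.15 to 2.54). Bach2 there had 95.8 CPM in engineered MSC (105 UMIs) against 32.6 in PBS (23 UMIs), a ratio of 2.93 (1.86 to 4.83). Bach2 inside M8 went the other way, at 9.77 CPM in engineered MSC (4 UMIs) against 32.8 CPM in PBS, a ratio of 0.298 (0.0802 to 0.779). Id3 was higher inside M8 as well, with ratios to PBS of 1.46 (1.28 to 1.65) for engineered and 1.56 (1.32 to 1.83) for native MSC.

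**Figure D4:**
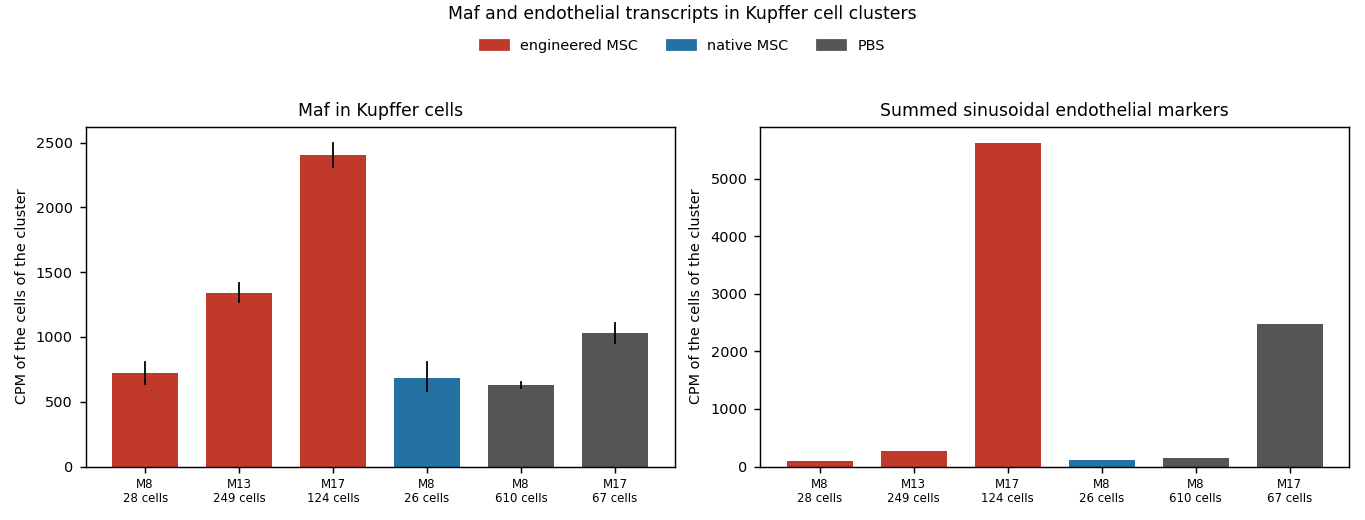
Maf CPM (left, with exact Poisson 95% intervals) and summed sinusoidal endothelial marker CPM (right) in the clusters named Kupffer cells, by library, for clusters with at least 20 cells; bars start at 0. M17 was highest in both, and M13 of engineered MSC had 1343 Maf CPM at an endothelial sum of 266 CPM.

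Dendritic cells differed in a few members. Type 1 cells had 100 Cebpb CPM in engineered MSC (117 UMIs) against 220 CPM in PBS (217 UMIs), 2.19-fold lower (1.74 to 2.77). Macrophage markers in these type 1 cells were also lower, at a sum of 617 CPM in engineered MSC against 1609 in PBS. The 25 native MSC type 1 cells, too few to compare, had 258 Cebpb CPM at a marker sum of 860 CPM. The part of macrophage markers in the Cebpb ratio was not tested. Classes with little Cebpb were lower in engineered MSC than in PBS as well. T cells had 95.1 CPM in engineered MSC against 137 in PBS, and B cells 83.6 against 134. Natural killer cells or ILC1 had 65.9 against 180 CPM and sinusoidal endothelium 69.9 against 128. The difference is thus not read as one of type 1 cells. Type 2 cells had 26.8 Maf CPM in engineered MSC (16 UMIs) and 53.5 in native MSC, against 86.0 in PBS (169 UMIs), with engineered MSC 3.21-fold lower than PBS (1.92 to 5.74). This call was lost with at least 500 genes per cell, with the members among the variable genes and with classes from a marker score per cell, and its log2 ratio reached -0.37. Irf8 of type 2 cells was 102 CPM in engineered and 145 in native MSC against 210 in PBS, with engineered MSC 2.05-fold lower (1.56 to 2.73). That call was lost with size factors by the median of ratios and with doublets kept, and its log2 ratio reached -0.07. Macrophage markers in these type 2 cells summed to 1878 CPM in engineered MSC, 5133 in native MSC and 3298 in PBS. They were lower in engineered MSC than in PBS, as Maf was, and their part in the Maf ratio was not tested. Irf4, the factor of this class, was 114 CPM in engineered MSC against 86.0 in PBS, a ratio of 1.33 (0.986 to 1.77) that counting error does not separate from no difference.

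Plasmacytoid cells had 10.4 Maf CPM in engineered MSC (7 UMIs) and 5.76 in native MSC (2 UMIs), against 38.6 in PBS (29 UMIs). Ratios to PBS were 0.271 for engineered (0.100 to 0.631) and 0.149 for native MSC (0.0172 to 0.589). These Maf levels were no higher than those of hepatocytes, at 32.6 CPM in engineered MSC, 18.2 in native MSC and 39.4 in PBS, and are not read as expression. Macrophage markers in the plasmacytoid cells summed to 818 CPM in engineered MSC and 921 in native MSC, against 1515 in PBS. Irf4 in these cells was 19.4 CPM in engineered MSC and 77.7 in native MSC, against 46.6 in PBS. Engineered MSC was thus lowest, 2.40-fold under PBS (1.24 to 4.95) and 4.01-fold under native MSC (2.00 to 8.46). T cells had the same order of Irf4, at 44.8 CPM in engineered MSC and 94.6 in native MSC, against 62.5 in PBS. Cebpb in plasmacytoid cells was 76.1 CPM in engineered MSC against 164 in native MSC, 2.16-fold lower (1.45 to 3.21). Classes with little Cebpb had a like ratio of engineered to native MSC, 0.382 in B cells, 0.373 in natural killer cells or ILC1, 0.423 in sinusoidal endothelium and 0.602 in T cells, so the difference is not read as one of plasmacytoid cells. Irf8, the abundant factor of the class, differed by little, with ratios to PBS of 0.858 for engineered (0.811 to 0.907) and 1.03 for native MSC (0.967 to 1.10).

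In neutrophils the abundant members hardly differed, with Cebpb ratios to PBS of 1.09 (1.05 to 1.13) in engineered and 1.07 (1.04 to 1.10) in native MSC. The ratios past 2-fold concerned rare transcripts. Irf8 had 12.1 CPM in engineered MSC (8 UMIs) and 7.998 in native MSC (61 UMIs), against 28.4 in PBS (38 UMIs). Bach2 had 10.6 CPM in engineered MSC and 3.02 in native MSC, against 12.0 in PBS. Engineered MSC was lower than PBS for Irf8, with a ratio of 0.426 (0.172 to 0.928), and for Klf4, with 0.311 (0.0790 to 0.898). Native MSC was lower than PBS for Irf8 (0.281), Klf4 (0.357), Maf (0.328) and Bach2 (0.252), and lower than engineered MSC for Maf and Bach2, with engineered over native ratios of 2.42 (1.46 to 3.86) and 3.52 (1.27 to 8.47). Hepatocytes, which should have little of these factors, had 8.48 (engineered MSC), 10.2 (native MSC) and 22.4 (PBS) Irf8 CPM and 32.6 (engineered MSC), 18.2 (native MSC) and 39.4 (PBS) Maf CPM in the same libraries. Their Bach2 levels were 23.1 CPM in engineered MSC, 6.03 in native MSC and 20.4 in PBS, above those of neutrophils, and Klf4 of neutrophils lay below that of T cells in each library. The neutrophil values were thus near the level in classes with little of these genes and are not read as expression. The shares of members past 2-fold above include these 8 pairs.

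Relatives of the members were counted in the same way. In classical monocytes, 1 of 6 measured MAF and BACH relatives was past 2-fold in each comparison with PBS, lower both times, with list medians of -0.46 for engineered and -0.55 for native MSC on the log2 scale, where the median of all genes was -0.07 for engineered and -0.14 for native MSC. It was Maff, a small MAF, at 11.2 CPM in engineered and 11.4 in native MSC against 29.8 in PBS. None of 4 C/EBP, 6 IRF, 6 KLF or 6 ID and E-protein genes was past 2-fold in either comparison, and 1 of 8 macrophage and Kupffer factors was. That was Nr1h3, the oxysterol receptor that supports Kupffer cell identity, at 12.6 CPM in engineered and 16.7 in native MSC against 79.9 in PBS. Free hepatocyte transcripts were past 2-fold higher for 8 of 8 genes in engineered and 7 of 8 in native MSC, and their part in the other ratios was not tested.

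In Kupffer cells of engineered MSC, 2 of 4 C/EBP relatives and 2 of 6 IRF relatives were past 2-fold higher than in PBS, where 13.7% of all genes in the class were. Hepatocyte markers in these cells summed to 2137 CPM in engineered MSC against 186 in PBS, and red cell markers to 1957 against 57.0 CPM, and their part in these ratios was not tested. They were Cebpd (76.5 CPM in engineered MSC against 29.0 in PBS), Cebpg (121 against 57.2), Irf1 (180 against 77.4) and Irf7 (154 against 55.2), the last an interferon-induced factor. Of 8 macrophage genes linked to Maf, 2 were past 2-fold, both higher, where 19.3% of all genes were past 2-fold either way. They were Cd163, a haemoglobin scavenger receptor, at 344 against 143 CPM, and Mrc1, a mannose receptor also made by sinusoidal endothelium, at 984 against 467 CPM.

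Genes with the most similar pattern were sought over 27 points, the libraries of 10 myeloid classes with at least 20 cells, by Pearson correlation of log2(CPM + 1) among 6289 genes. The points share libraries and depth, and the correlations are descriptions. Maf lay closest to Msr1 (0.955), with Lgmn (0.928) also among its nearest genes, Cebpb to Msrb1 (0.976), Spi1 to Csf2ra (0.935), Klf4 to Ms4a4c (0.930) and Irf8 to Txndc5 (0.908). Bach2 lay closest to Tcof1 (0.921), Id3 to Rasgef1b (0.934), Irf4 to Tamalin (0.857) and Cebpe to Mmp8 (0.883). Ms4a4c and Mmp8 were among the markers that named the classes. Between members, Klf4 and Id3 had 0.80 and Bach2 and Irf4 0.77, whereas Cebpb and Irf8 had -0.77.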

How the data were processed

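Single-cell libraries came from 3 livers, 1 per group, and the authors deposited raw counts, as UMIs per gene and barcode. Per the submitters' processing notes, reads were counted with Cell Ranger 7.1.0 on GRCm39. Whether intronic reads were counted is not given in the sources used here, and this bears on long genes with little exonic 3' sequence.

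A barcode was kept if it reached 200 genes and 500 UMIs and if mitochondrial UMIs made up no more than 20%, and the highest Scrublet scores were removed as doublets at 0.8% per 1000 barcodes (973 engineered MSC, 1054 native MSC and 923 PBS). Cells of all libraries were clustered together with scanpy 1.11.5 and leidenalg 0.10.2 under Python 3.11.15 (2000 variable genes without the 9 members, 30 components, 15 neighbours, resolution 1), and myeloid clusters a second time. Monocytes were then clustered within each library at resolution 2. A cluster took the name of the best of 24 marker lists, and a monocyte cluster was called patrolling with a score of at least 0.5, at least 1 above the classical score and at least 6 of 10 markers over 1.5-fold. A monocyte cluster led by more markers of the other monocyte class was left unnamed. The members, lists and markers were chosen with earlier results of these data known, and the naming rules were settled after several versions had been looked at with member levels in view.

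UMIs were summed per class and library and scaled to CPM, with exact Poisson intervals. Ratios of CPM have exact conditional binomial 95% intervals, were computed with scipy 1.17.1 and were tested on simulated data. A count of 0 was bounded with a floor of 3 counts per library. Shares of cells have exact Clopper-Pearson intervals and were thinned to 1000 UMIs per cell. UMIs remove amplification copies, free RNA was not subtracted, and intervals cover counting error alone. All 9 members are reported, those past 2-fold in full, and from the 18 gene lists at most 3 genes with the largest ratios. Alternatives changed the filters, doublet removal, resolution, variable genes, weighting, normalization, class assignment and total, and 4 more were chosen after seeing the data. Results for 1 gene of the lists are not reported here.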

Additional observations from a re-analysis of the deposited data

Results flagged for a closer look

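Within engineered MSC against PBS, 3 members lay past 2-fold in opposite directions in different classes, which drew attention to them. The difference between the classes was not tested, since each group was 1 library. Cebpe was higher in classical monocytes, with a log2 ratio of 1.33, and lower in macrophages, where engineered MSC had 0 UMIs against 41 in PBS, levels below those of hepatocytes and not read as expression. Hepatocyte Cebpe was also higher in engineered MSC than in PBS, and the part of such a background in the monocyte ratio was not tested. Maf was higher in Kupffer cells, with a log2 ratio of 1.32, and lower in type 2 dendritic cells (-1.68) and plasmacytoid dendritic cells (-1.89), where its levels were no higher than those of hepatocytes. Bach2 was higher in Kupffer cells, with a log2 ratio of 1.07, and lower in classical monocytes (-1.90).

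A Maf signal also appeared in cells that no comparison used. The unnamed cluster A22 held 277 PBS cells with a median of 900 UMIs and had 1501 Maf CPM (453 UMIs, interval 1366 to 1646). The 27 engineered MSC cells of A22 had 4249 CPM (101 UMIs), and the PBS sinusoidal endothelial cells 1896 CPM. Its leading genes included Esm1, Procr and Ecscr, endothelial genes, and sinusoidal endothelium was its best marker list.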

How the results depend on the processing

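No paired analysis was possible because each group is 1 library. Counts of members past 2-fold ranged over the alternatives between 6 and 14 for engineered MSC against PBS (12 as reported), 4 and 9 for native MSC against PBS (7 as reported) and 4 and 13 for engineered against native MSC (4 as reported). With doublets kept, the counts were 6, 4 and 9 in that order of comparisons, and with classes set by a marker score per cell, engineered against native MSC had 13. That score also turned 2 ratios of engineered MSC to PBS round, Klf4 in neutrophils to a log2 ratio of 0.63 and Maf in plasmacytoid cells to 0.24. The cause was not tested. Keeping doublets left engineered MSC with 31 macrophages and 30 classical monocytes, so those classes gave no value, and 9 of 20 calls with a value were kept. Bach2 in classical monocytes kept its call under each alternative that gave a value, with log2 ratios between -2.14 and -1.67 for engineered MSC and between -2.24 and -1.78 for native MSC. Maf in Kupffer cells ranged from 0.88 to 1.35 and lost its call with doublets kept or without M17, and Bach2 there ranged from 0.46 to 1.27 and lost its call under 4 alternatives. Cebpe in classical monocytes ranged from 0.67 to 1.60. At the lower clustering resolution, type 2 dendritic cells were not named apart, and the highest class became plasmacytoid cells for Irf4 and Bach2 and Kupffer cells for Id3. The remaining alternatives kept between 16 and 22 of the reported calls, the fewest with the marker score. Depth limits the rare members most, since a call on fewer than 10 UMIs in a library, as for Klf4 in engineered MSC neutrophils or Maf in plasmacytoid cells, has an interval that spans several fold. Replicate animals, not depth, are what the comparison of groups lacks.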

Other observations

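Part of the genes linked to Cebpb lay past 2-fold higher in macrophages of the MSC libraries. For engineered MSC against PBS, 4 of 7 measured genes were past 2-fold higher and none lower, with a median log2 ratio of 1.11, where that of all genes was 0.02 and 7.88% of all genes were past 2-fold higher. Chil3, a chitinase-like protein, had 442 CPM in engineered MSC and 803 in native MSC, against 80.6 in PBS, and the cytokine Il1b 158 CPM in engineered MSC and 107 in native MSC, against 67.6 in PBS. For native MSC against PBS, 4 of 8 were past 2-fold higher, with a median of 2.08 against -0.05 for all genes, of which 6.22% were past 2-fold higher. Classical monocyte markers in these macrophages summed to 2022 CPM in engineered MSC and 2669 in native MSC, against 450 in PBS, and the neutrophil gene S100a8 had 12.3 CPM in engineered MSC and 108 in native MSC, against 10.52 in PBS, and their part in the list was not tested. The acute-phase gene Saa3 had 11.4 CPM in engineered MSC and 114 in native MSC, against 4.303 in PBS, and Lcn2, an iron-carrier binder also made by neutrophils, 8.49 CPM in engineered MSC and 51.6 in native MSC, against 4.303 in PBS. In Kupffer cells the list went both ways, with 2 of 7 past 2-fold higher and 1 lower in engineered MSC against PBS.

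Kupffer genes were uneven as well. In Kupffer cells, the lectin Fcna had 706 CPM in engineered MSC against 296 in PBS, whereas the scavenger receptor Marco had 1107 CPM in engineered MSC against 2419 in PBS, and Clec4f, Timd4, Vsig4 and Cd5l lay within 2-fold. Outside the myeloid classes, the level of Irf8 in natural killer cells or ILC1 was 575 CPM in engineered MSC, 760 in native MSC and 615 in 32 PBS cells. Bach2 in T cells stood at 690 CPM in engineered MSC and 348 in native MSC, against 1092 in PBS.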
